A study of Mus musculus with 6 samples.

Results

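The adhesion molecules by which leukocytes are caught on, and pass through, the vessel wall were followed in the lungs of endotoxaemic mice. They are 10 genes: Sele, Selp and Selplg, the immunoglobulin superfamily genes of leukocyte capture and passage Icam1, Icam2, Vcam1 and Pecam1, and the junction genes Cdh5, Esam and F11r. These were chosen by their known roles, and they are 10 of the 22911 genes that could be named on the array. They were represented by 13 probes, of which Selp had 3 and Vcam1 had 2. Each gene is described by its brightest probe over the 6 arrays. All 10 passed the filter on low signals and were among the 16370 genes tested. Each brightest probe was well above background on all 6 arrays, and none was saturated.

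All mice were male, C57BL6 and 10 weeks of age. After 16 h without food each received LPS (20 mg/kg, i.p.), followed at 3 h and again at 24 h by saline in one group and by recombinant human thrombomodulin (rhTM) in the other. Lungs were taken 30 h after LPS administration from 3 saline-treated and 3 rhTM-treated mice, and RNA of whole lung from each mouse was hybridised to 1 Agilent 1-colour array. The comparison asks which lung transcripts differ with rhTM treatment. All 6 mice had received LPS, so the response to LPS itself was not analysed here. All 20 endothelial and all 11 epithelial markers passed the filter in these lungs, as did 16370 of the 22911 named genes. With so many genes passing, these counts cannot check the tissue label.

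Leukocytes leave the blood in steps. Selectins on activated endothelium bind sugars on leukocyte proteins and let the cells roll, then integrins on the leukocyte take hold of ICAM and VCAM proteins, and the cells finally pass between endothelial cells through junctions held by PECAM-1, VE-cadherin and JAM proteins. Sele, Selp, Icam1 and Vcam1 are known to be switched on in endothelium by LPS and inflammatory cytokines, largely through NF-κB, whereas Icam2, Cdh5 and Esam are constitutively made by endothelial cells.

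The promoters of Sele, Selp and Icam1 are shown because these are the inducible members among the 4 of 10 genes for which a promoter was matched. Each sequence is the 250 bases before the gene's start, on the plus strand of mouse assembly GRCm38.p6 from RefSeq, at chr1:164047984-164048233 for Sele, chr1:164115014-164115263 for Selp and chr9:21015690-21015939 for Icam1. Capitals mark matches to GGAANTTCC, a form of the site that NF-κB proteins bind, and to the TATA box TATAAA, both searched on both strands.
Sele: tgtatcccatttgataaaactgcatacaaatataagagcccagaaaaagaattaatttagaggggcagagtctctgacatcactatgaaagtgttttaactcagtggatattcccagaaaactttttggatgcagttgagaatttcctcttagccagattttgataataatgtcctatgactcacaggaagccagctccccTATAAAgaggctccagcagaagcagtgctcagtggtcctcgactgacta
Selp: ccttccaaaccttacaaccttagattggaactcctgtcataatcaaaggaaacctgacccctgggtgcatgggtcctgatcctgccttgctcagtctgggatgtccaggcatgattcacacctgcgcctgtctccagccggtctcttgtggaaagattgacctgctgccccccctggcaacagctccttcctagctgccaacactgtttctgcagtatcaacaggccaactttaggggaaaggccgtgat
Icam1: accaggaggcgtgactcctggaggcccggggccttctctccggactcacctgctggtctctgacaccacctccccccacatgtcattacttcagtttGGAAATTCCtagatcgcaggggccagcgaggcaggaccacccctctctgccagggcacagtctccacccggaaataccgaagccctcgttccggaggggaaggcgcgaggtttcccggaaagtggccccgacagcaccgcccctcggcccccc
The window of Sele held TATAAA 49 to 44 bases before the start, and that of Icam1 held GGAAATTCC 153 to 145 bases before it. Neither motif was found in the window of Selp. Of 32851 promoter windows of the same length, 12.4% held TATAAA and 0.813% held GGAANTTCC. Other forms of the site that NF-κB proteins bind were not searched, so a window without a marked match may still hold one. These matches describe the letters of the windows, and no factor was measured at them.

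All signals are given on a log2 scale on which 0 is the 75th percentile of the array, a point that lay between 675 and 850 intensity units on the 6 arrays. From 36243 to 40646 of 56605 probes were well above background. In the table of values deposited beside the scanner output, the columns of saline replicate 1 and rhTM replicate 2 hold each other's scanner values, at 99.9% of probes. The sources used here do not settle which is right, so values from the scanner output are given first and those from the table, or without both arrays, beside them. The array of rhTM replicate 1 stood apart from the others. Over all genes the SD of its deviations from the mean of the 6 arrays was 0.41, against 0.23 to 0.31 on the other arrays. Saline replicate 1 and rhTM replicate 3 were on slide 2 and the other 4 arrays were on slide 1.

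None of the 10 genes passed limma's moderated test for a difference between rhTM-treated and saline-treated mice. The adjusted p was 1.00 for each, 0 of the 10 passed at an unadjusted p under 0.05, and over all genes 0% passed after adjustment and 1.87% before it. The groups overlapped for every member, whereas they did not overlap for 5.52% of all genes tested. The mean of the rhTM-treated mice was higher for 4 members and lower for 6, and 50.7% of all genes were higher. The median difference of the members was -0.05, against 0.0026 over all genes. The largest differences were a lower mean of Icam1, Pecam1, Vcam1 and Icam2 and a higher mean of Selp with rhTM, and each of these was within the spread between mice. In RNA of whole lung, fewer cells of a type and less RNA per cell cannot be told apart.

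**Figure D1:**
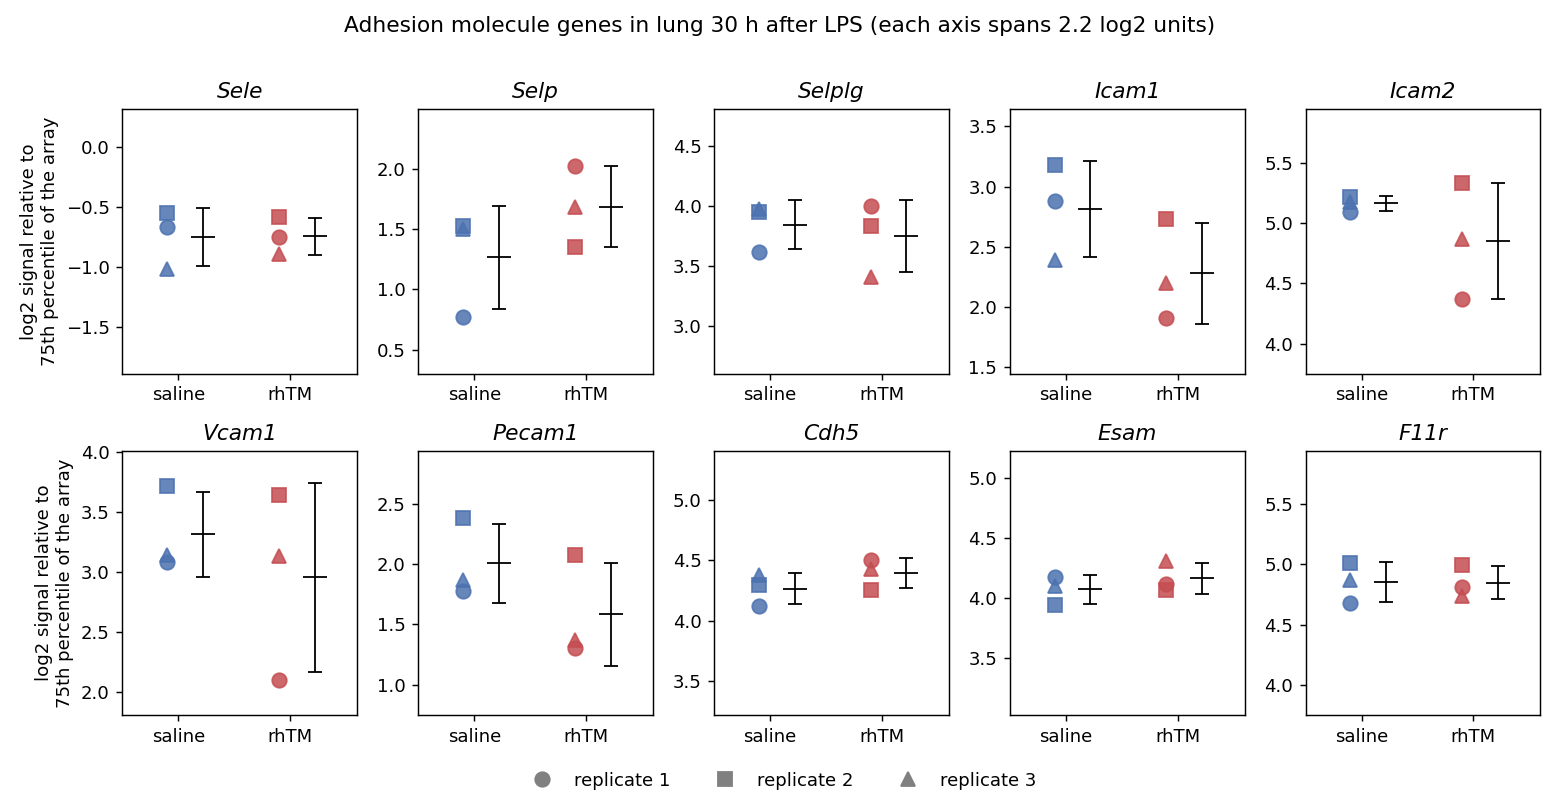
Signal of the 10 adhesion molecule genes on each array, as log2 relative to the 75th percentile of the array, with every axis spanning 2.2 log2 units. Each symbol is 1 mouse, with circle, square and triangle for replicates 1, 2 and 3, and the bars beside them are the group mean and SD (n = 3); the groups overlap for all 10 genes, and the widest spread is that of Vcam1 in the rhTM group, from 2.10 to 3.64.

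E-selectin, the product of Sele, is made by endothelium mainly after activation and supports slow rolling. Its log2 signal was -0.67, -0.56 and -1.02 on saline replicates 1, 2 and 3, and -0.75, -0.59 and -0.90 on rhTM replicates 1, 2 and 3. The values interleaved, with replicate 2 highest and replicate 3 lowest in both groups. On a linear scale the signal was 0.600 ± 0.097 times the 75th percentile in saline-treated mice and 0.599 ± 0.064 in rhTM-treated mice (SD, n = 3). The fold difference was 1.00 (95% interval 0.766 to 1.32; exact permutation test, two-sided p = 1), with log2 differences of 0.12 on slide 1 and -0.22 on slide 2. With 3 arrays a group, the precision of this and every other value is limited by their number. The smallest p that the 20 ways of splitting 3 against 3 arrays allow is 0.1.

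P-selectin, encoded by Selp, is stored in granules of endothelial cells and of platelets and reaches the surface within minutes of activation. The brightest probe of Selp read 0.77, 1.53 and 1.5 in the saline-treated mice and 2.03, 1.36 and 1.68 in the rhTM-treated mice. Saline replicate 1 was the lowest array and rhTM replicate 1 the highest, and the other 4 lay within 1.36 to 1.68. On a linear scale Selp gave 2.47 ± 0.66 times the 75th percentile with saline and 3.28 ± 0.76 with rhTM (SD, n = 3). The log2 difference was 0.42 (standard error 0.26, fold 1.34 with a 95% interval of 0.869 to 2.07; exact permutation test, two-sided p = 0.3). With each array left out in turn it ranged from 0.18 without saline replicate 1 to 0.59 without rhTM replicate 2. It was 0.25 without rhTM replicate 1, 0.01 without both replicates 1, 0.34 without both exchanged arrays and 0.03 by the deposited table.
The 3 probes of Selp did not follow one pattern. The second probe read 0.40, -0.43 and -0.42 with saline and 0.53, -0.41 and 1.01 with rhTM, and the third read -0.02, -1.0 and -1.31 with saline and -0.54, -1.31 and 0.23 with rhTM. On these probes saline replicate 1 was the highest saline array, whereas on the brightest probe it was the lowest. The rhTM mean was higher by 0.53 on the second probe and by 0.24 on the third (exact permutation tests, two-sided p = 0.2 and p = 0.7). By the deposited table these differences were 1.07 and 1.1, with every rhTM array above every saline array on both probes (exact permutation test, two-sided p = 0.1 for each, the smallest possible), and without both exchanged arrays they were 1.20 and 1.0. Both of these probes were brighter on slide 2 than on slide 1 within each group. For the second the difference between the slides was 0.83 within saline and 0.95 within rhTM, and for the third it was 1.14 and 1.15. For the brightest probe it was -0.74 within saline and -0.01 within rhTM. For the brightest probe the rhTM minus saline difference was 0.18 on slide 1, with 2 arrays a group, and 0.91 on slide 2, with 1 array a group. The part of the slide in these values was not tested.

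**Figure D2:**
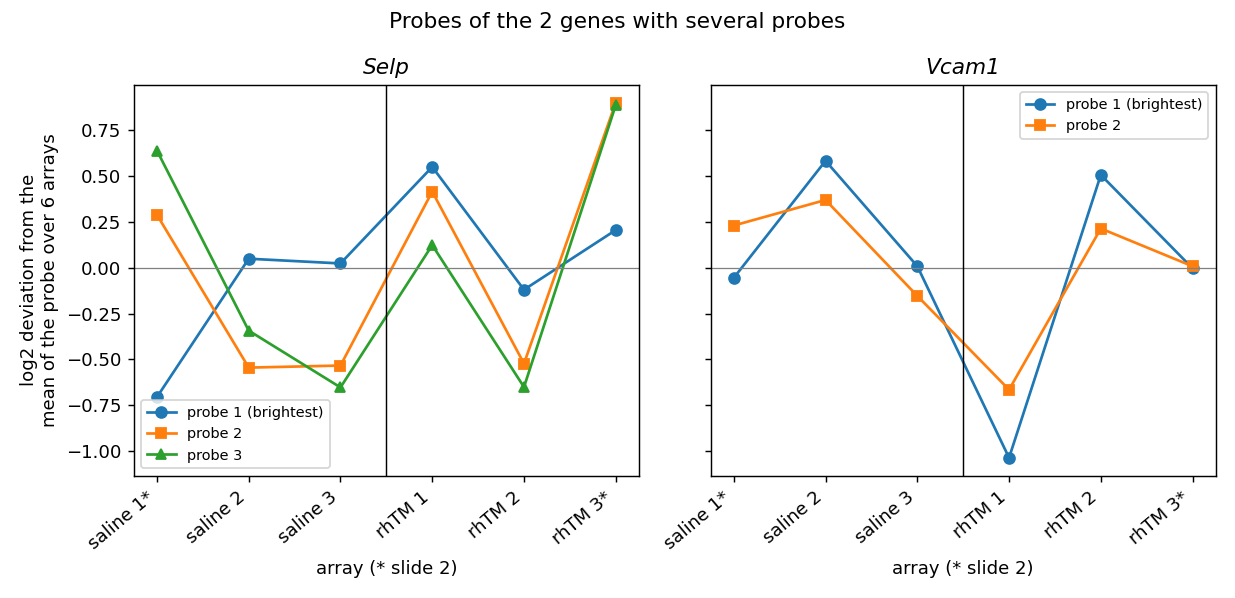
Log2 deviation of each probe of Selp and Vcam1 from its own mean over the 6 arrays, by array, with an asterisk for the arrays on slide 2 and a vertical line between the groups; points are single arrays and the lines only join the points of a probe. The second and the third probe of Selp rise on both slide 2 arrays while its brightest probe is lowest on saline replicate 1, and both probes of Vcam1 are lowest on rhTM replicate 1.

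Selplg encodes PSGL-1, a ligand on leukocytes for P-selectin and E-selectin. Its log2 signal was 3.62, 3.95 and 3.98 in saline-treated mice and 4.0, 3.84 and 3.41 in rhTM-treated mice. The highest and the lowest array were both in the rhTM group. Linear values were 14.5 ± 1.92 with saline and 13.6 ± 2.71 with rhTM (SD, n = 3), a fold of 0.935 (95% interval 0.682 to 1.28; exact permutation test, two-sided p = 0.7). The sign of the difference rested on rhTM replicate 3, since the log2 difference was -0.10 with all arrays and 0.07 without that one.

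ICAM-1 is the endothelial ligand of the β2 integrins LFA-1 and Mac-1 and is strongly induced by LPS. Of the 10 genes, Icam1 had the largest difference between the group means. Its log2 signal was 2.88, 3.18 and 2.39 in saline-treated mice and 1.91, 2.73 and 2.2 in rhTM-treated mice. Saline replicates 1 and 2 were the highest arrays and rhTM replicates 1 and 3 the lowest, but rhTM replicate 2 was above saline replicate 3. Linear values were 7.23 ± 1.92 with saline and 5.0 ± 1.49 with rhTM (SD, n = 3). The log2 difference was -0.54 (standard error 0.28, fold 0.690 with a 95% interval of 0.437 to 1.09; exact permutation test, two-sided p = 0.2). Of all genes, 96.5% had a smaller absolute difference. The rhTM mean was lower on both slides, with differences of -0.46 on slide 1 and -0.68 on slide 2, and when each array was left out in turn, with differences from -0.76 to -0.35.

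ICAM-2 is made by resting endothelium and also binds LFA-1. The signal of Icam2 was 5.09, 5.22 and 5.18 in saline-treated mice and 4.37, 5.33 and 4.87 in rhTM-treated mice. The 3 saline arrays lay close together, and the rhTM arrays spread to both sides of them. On a linear scale Icam2 gave 35.9 ± 1.59 with saline and 30.0 ± 9.83 with rhTM (SD, n = 3), a fold of 0.807 (95% interval 0.543 to 1.2; exact permutation test, two-sided p = 0.4). The log2 difference of -0.31 became -0.07 without rhTM replicate 1, and it was -0.35 on slide 1 and -0.23 on slide 2.

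VCAM-1 is induced on inflamed endothelium and is bound by the integrin VLA-4 of monocytes and lymphocytes. Vcam1 read 3.08, 3.72 and 3.14 in saline-treated mice and 2.10, 3.64 and 3.13 in rhTM-treated mice. A single array, rhTM replicate 1, was below all others, and without it the groups spanned nearly the same range. Linear values were 10.2 ± 2.61 with saline and 8.51 ± 4.10 with rhTM (SD, n = 3). The log2 difference was -0.36 (standard error 0.40, fold 0.781 with a 95% interval of 0.407 to 1.5; exact permutation test, two-sided p = 0.5), and without rhTM replicate 1 it was 0.07. Within slide 1, which holds that array, it was -0.56, and within slide 2 it was 0.05. The second probe of Vcam1 gave -0.32, -0.18 and -0.71 with saline and -1.22, -0.34 and -0.55 with rhTM, again lowest on rhTM replicate 1, and a difference of -0.30.

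PECAM-1, or CD31, sits at endothelial junctions and on platelets and leukocytes and takes part in transmigration. Pecam1 read 1.77, 2.38 and 1.87 in saline-treated mice and 1.31, 2.08 and 1.37 in rhTM-treated mice. The lowest arrays were rhTM replicates 1 and 3, and rhTM replicate 2 lay above saline replicates 1 and 3. The linear signal was 4.09 ± 0.975 with saline and 3.1 ± 0.981 with rhTM (SD, n = 3). The log2 difference was -0.42 (standard error 0.26, fold 0.747 with a 95% interval of 0.485 to 1.15; exact permutation test, two-sided p = 0.3). It was -0.43 on slide 1, -0.40 on slide 2 and -0.28 without rhTM replicate 1, and it stayed below 0, from -0.67 to -0.23, when each array was left out in turn.

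The junction genes gave the narrowest values. Cdh5, which encodes the adherens junction protein VE-cadherin, read 4.12, 4.30 and 4.38 with saline and 4.50, 4.26 and 4.43 with rhTM. Saline replicate 1 was the lowest and rhTM replicate 1 the highest of these arrays, and the linear signal was 19.3 ± 1.74 and 21.1 ± 1.82 (SD, n = 3). The fold was 1.1 (95% interval 0.882 to 1.36; exact permutation test, two-sided p = 0.3). The log2 difference of 0.13 was 0.06 to 0.20 with each array left out in turn, lowest without saline replicate 1, and 0.0051 without saline replicate 1 and rhTM replicate 1.
Esam encodes an immunoglobulin-like protein of endothelial tight junctions that is also found on platelets. It read 4.17, 3.94 and 4.10 with saline and 4.12, 4.07 and 4.31 with rhTM, with the highest array, rhTM replicate 3, close above saline replicate 1. The linear signal was 16.9 ± 1.35 and 18.0 ± 1.61 (SD, n = 3), and the fold was 1.07 (95% interval 0.862 to 1.32; exact permutation test, two-sided p = 0.5). The log2 difference was 0.09, and with each array left out in turn it ranged from 0.02 without rhTM replicate 3 to 0.14 without saline replicate 1.
F11r encodes JAM-A, a tight junction protein of both epithelium and endothelium. It read 4.68, 5.01 and 4.87 with saline and 4.82, 5.0 and 4.74 with rhTM, and the groups overlapped, with a saline array at either end of the range. The linear signal was 29.1 ± 3.37 and 28.9 ± 2.72 (SD, n = 3), and the fold was 0.996 (95% interval 0.790 to 1.26; exact permutation test, two-sided p = 1). Over the 3 junction genes the intervals of the fold ran from 0.790 to 1.36. On slides 1 and 2 the log2 differences were 0.04 and 0.31 for Cdh5, 0.07 and 0.13 for Esam and -0.04 and 0.06 for F11r.

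The members differed from each other in how far they varied between mice. From the lowest to the highest of the 6 arrays, Vcam1 spanned 3.07-fold, Icam1 2.42-fold, Selp 2.39-fold and Pecam1 2.11-fold. F11r spanned 1.26-fold, Esam 1.29-fold, Cdh5 1.31-fold and Sele 1.38-fold. Within groups the SD of Vcam1 was 0.61, larger than for 94.3% of all genes, and that of Icam1 was 0.41, larger than for 84.8%. Esam and Cdh5 had within-group SDs of 0.12 and 0.13, larger than for 19.7% and 22.2% of genes. The inducible gene Sele was not among the variable ones, with an SD of 0.20 that was larger than for 49.1% of genes.
Icam1, Icam2, Vcam1 and Pecam1 were all lowest on rhTM replicate 1 and above their means on saline replicate 2 and rhTM replicate 2, whereas Selp was highest on rhTM replicate 1. Saline replicate 2 was the highest array for 5 members (Sele, Icam1, Vcam1, Pecam1 and F11r), and for 20.6% of all genes. On that array Icam1, Pecam1 and Vcam1 were 0.63, 0.59 and 0.58 above their means over the 6 arrays. The root mean square distance between the centred profiles was 0.19 for Icam1 and Pecam1 and 0.21 for Icam2 and Pecam1. For Icam2 and Vcam1 it was 0.25, for Icam1 and Icam2 0.26, and for Vcam1 with Pecam1 and with Icam1 0.30 each. The widest distances were those of Selp, at 0.78 from Vcam1, 0.74 from Icam1 and 0.63 from each of Icam2 and Pecam1. Among the less variable genes it was 0.15 for Cdh5 and Esam and 0.16 for Sele and F11r. These distances are descriptions over 6 arrays that share the scaling of each array.

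**Figure D3:**
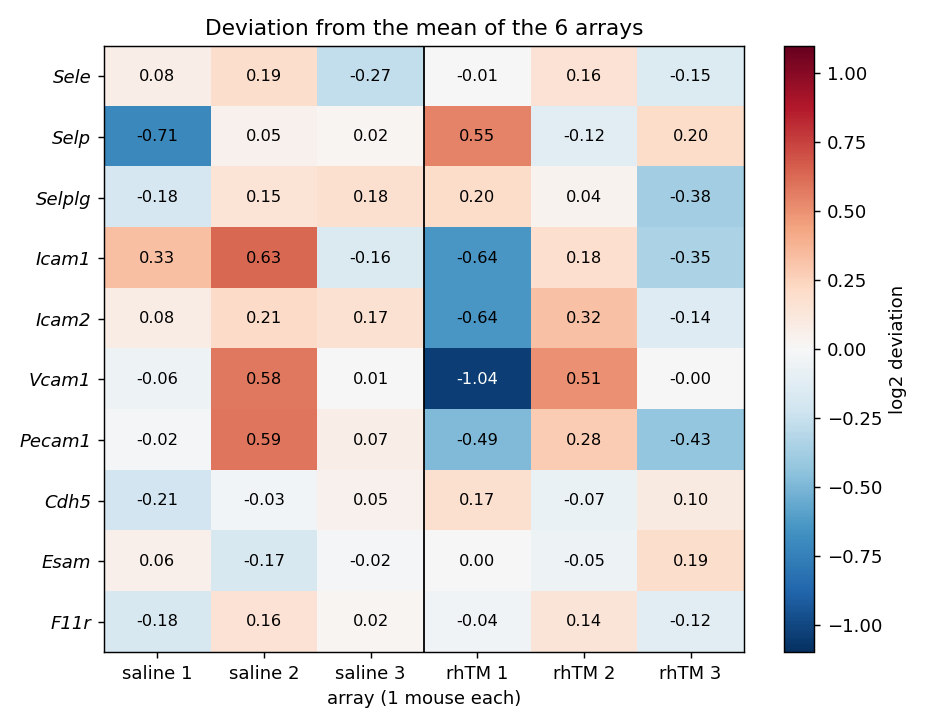
Log2 deviation of each gene from its own mean over the 6 arrays, 1 row per gene and 1 column per array (1 mouse each), with the value in each cell, red above and blue below the mean. Icam1, Icam2, Vcam1 and Pecam1 are lowest on rhTM replicate 1 (-0.64, -0.64, -1.04 and -0.49) and above their means on saline replicate 2 and rhTM replicate 2.

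Against the mean of the other 5 arrays, Vcam1 was 0.422-fold, Icam2 0.585-fold, Icam1 0.586-fold and Pecam1 0.666-fold on rhTM replicate 1, the lowest array for all 4. Selp was 1.58-fold, Selplg 1.18-fold and Cdh5 1.15-fold there and highest of the 6 arrays, whereas Esam was 1.00-fold, Sele 0.995-fold and F11r 0.97-fold. That array was the lowest for 26.6% and the highest for 29.8% of all genes. Only 1.49% of all genes deviated further down on it than Vcam1, against 5.06% for Icam2, 5.09% for Icam1 and 9.11% for Pecam1. The members thus spread to both sides on rhTM replicate 1.
The other endothelial markers also lay on both sides on that array, but more of them below their means than above, with 11 of 20 at their lowest there. Their median deviation on it was -0.19, against -0.02 for the members and 0.01 over all genes. The summed level of these markers was 471 times the 75th percentile on rhTM replicate 1, against 522 to 546 in saline-treated mice and up to 564 in rhTM-treated mice. With the assignment of the table these ranges were 522 to 564 and up to 546. Calcrl, the receptor subunit for adrenomedullin, deviated by -1.68 from its mean over the 6 arrays there, and the endothelial transcription factor genes Sox18 and Sox17 by -1.23 and -0.92. In contrast Lyve1, a hyaluronan receptor gene, deviated by 0.74 and the chemokine-binding receptor gene Ackr1 by 0.59. These 5 were picked after their values on that array had been seen. Whether the amount of endothelium in the sampled lung had a part in the values of Icam1, Icam2, Vcam1 and Pecam1 was not tested.

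**Figure D4:**
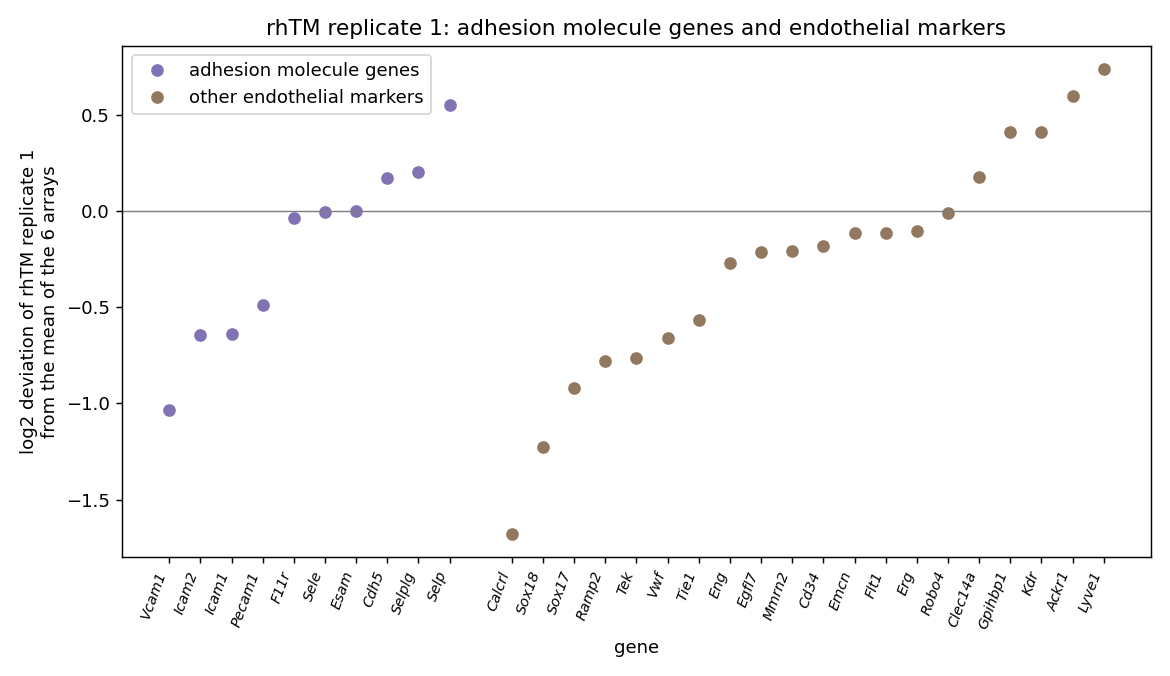
Log2 deviation of rhTM replicate 1 from the mean of the 6 arrays for the 10 adhesion molecule genes (left) and the 20 other endothelial markers (right), sorted within each set; each point is 1 gene on 1 array. Both sets spread to both sides of 0, from -1.04 for Vcam1 to 0.55 for Selp and from -1.68 for Calcrl to 0.74 for Lyve1. The median is -0.02 on the left and -0.19 on the right, where more genes lie below 0 than above.

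The exchange of 2 arrays between the scanner output and the deposited table bears on the members directly. With the assignment of the table, the groups no longer overlapped for 5 of the 10 genes, beside 21.7% of all genes. Pecam1, Icam2, Vcam1 and F11r were lower in every rhTM-treated mouse and Esam was higher (exact permutation test, two-sided p = 0.1 for each, the smallest possible). For Vcam1 this held for the brightest probe, whereas on its second probe the groups overlapped and the difference was -0.29 (exact permutation test, two-sided p = 0.6). The log2 differences were -0.63 for Pecam1, -0.47 for Icam2, -0.73 for Vcam1, -0.22 for F11r and 0.16 for Esam. None passed the adjustment, with limma's adjusted p from 0.314 for Pecam1 to 0.492 for Esam. At an unadjusted p under 0.05 there were 2 of the 10, Pecam1 and Icam2, where 14.0% of all genes passed. The median difference of the members was -0.23 by the table and -0.02 over all genes.
For the other members the table gave -0.44 for Icam1, -0.24 for Selplg, -0.05 for Sele, 0.03 for Selp and 0.04 for Cdh5, and their groups overlapped. These values are of the brightest probe of each gene. For Selp that probe gave 0.42 with the scanner assignment against 0.03 here, whereas its other 2 probes had a higher mean with rhTM under either assignment, and without overlap here. The lower means of Icam1, Icam2, Vcam1 and Pecam1 had the same direction under both assignments. Both assignments share every array but the exchanged ones, among them rhTM replicate 1, the lowest array for each of these genes. The shared direction is therefore partly built in. In the table both slide 2 arrays are rhTM arrays, so slide and treatment can be separated there only through rhTM replicate 1.
Without both exchanged arrays, 2 saline arrays remained against 2 rhTM arrays. The log2 differences were then -0.73 for Icam1, -0.58 for Icam2, -0.81 for Vcam1 and -0.79 for Pecam1, 0.34 for Selp, 0.19 for Esam, 0.13 for Cdh5, -0.17 for F11r, -0.26 for Selplg and -0.04 for Sele. The groups did not overlap for 8 of the 10, beside 41.5% of all genes with so few arrays. Limma's adjusted p was 0.648 or more for every member, and the unadjusted p was under 0.05 for Icam2 and Pecam1, where 7.70% of all genes passed, against 0.00608% after adjustment. Leaving out rhTM replicate 2 alone left 5 members without overlap (Selp, Icam1, Icam2, Pecam1 and Cdh5), beside 24.5% of all genes. In the table without rhTM replicate 1 there were 6 (Selplg, Icam2, Vcam1, Pecam1, Esam and F11r), beside 46.1% of all genes, and 3.54% of all genes but none of the members passed the adjustment.

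**Figure D5:**
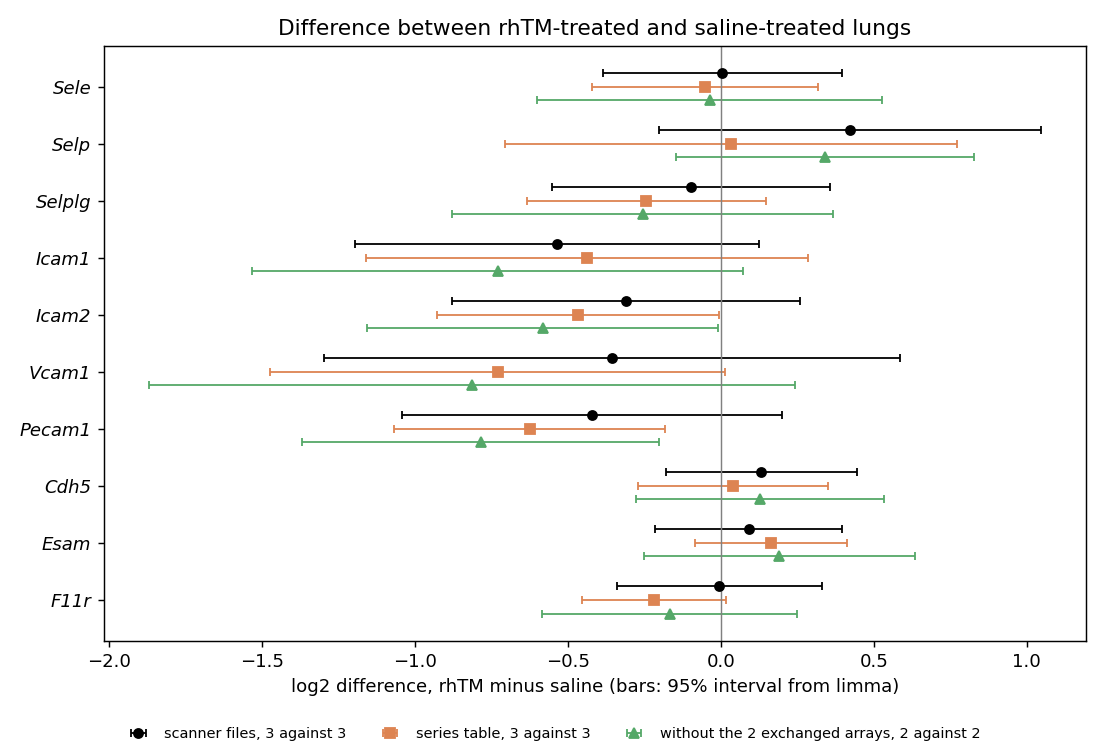
Log2 difference of rhTM-treated minus saline-treated mice for each gene, with 95% intervals from limma, by the scanner output (circles, 3 against 3 arrays), by the deposited table (squares, 3 against 3) and without both exchanged arrays (triangles, 2 against 2). Icam1, Icam2, Vcam1 and Pecam1 lie below 0 in all 3, and only the intervals of Icam2 and Pecam1 by the table and without the exchanged arrays leave out 0.

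Among the leukocyte partners of these molecules, 0 of 15 passed the test in either direction, 9 had a higher and 6 a lower mean with rhTM, and the median difference was 0.01. Itgal and Itgb2, which encode the 2 chains of the ICAM receptor LFA-1, had the smallest unadjusted p among those with a lower mean, with differences of -0.32 and -0.21 by the scanner output and -0.59 and -0.19 by the table. Itgav, the integrin αv gene, and Cd44, which encodes a hyaluronan receptor that can carry selectin ligands, had differences of 0.16 and 0.18, and of 0.19 and 0.47 by the table. Of the 14 genes that build selectin ligands, 0 passed, 6 had a higher and 8 a lower mean, and the median was -0.01. The sialyltransferase gene St3gal4 was the only one whose groups did not overlap, beside 5.52% of all genes, at 0.33, 0.32 and 0.32 with saline and 0.96, 0.37 and 0.40 with rhTM, a difference of 0.26 (0.23 by the table, where the groups overlapped). Tpst2 and Tpst1, the tyrosylprotein sulfotransferases that act on PSGL-1, differed by 0.22 and -0.18, and Chst4, a sulfotransferase of lymph node selectin ligands, by -0.34. By the table these 3 differed by 0.14, -0.32 and -0.49.
Among the 17 junction partners, 0 passed, 7 had a higher and 10 a lower mean, and the median was -0.04. Jup, encoding plakoglobin, which links VE-cadherin to the cytoskeleton, was lower in every rhTM-treated mouse by the scanner output, at -0.27, -0.01 and -0.31 against 0.01, 0.16 and 0.07, a difference of -0.28 (-0.26 by the table, where the groups overlapped). Ptprb, the phosphatase that acts on VE-cadherin complexes, and Cldn5, the endothelial claudin gene, had differences of 0.31 and 0.28, and Ctnna1, encoding α-catenin, of -0.07. By the table these were 0.56, 0.36 and -0.13.
Of 20 genes that cytokines induce in endothelium together with Sele, Icam1 and Vcam1, 19 were tested and 0 passed, with 11 higher and 8 lower means and a median of 0.06. The neutrophil chemokine gene Cxcl2 read -0.50, -0.71 and -0.55 with saline and 1.19, -0.46 and -0.07 with rhTM, so the groups did not overlap, and the difference was 0.81 (0.78 by the table, where they overlapped). Csf3, the G-CSF gene, had a difference of 0.77 (1.05 by the table). Both were highest on rhTM replicate 1, whereas 5 of the 19, among them Cxcl1 and Cxcl10, were lowest there, as Icam1 and Vcam1 were. Cxcl1 and Ccl7, which encode chemokines for neutrophils and monocytes, had differences of -0.31 and -0.15, which by the table were -0.03 and -0.09.

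Markers of the cells that could add to the members' signals were read on the same arrays, and 0 genes of these lists passed the test. The summed neutrophil markers were 963 to 1119 times the 75th percentile with saline and 979 to 1251 with rhTM, highest on rhTM replicate 1. With the assignment of the table they were 963 to 1070 with saline and 1102 to 1251 with rhTM, so the groups did not overlap there. The part of neutrophils in the members' signals was not tested. The neutrophil granule genes Camp, Mmp8 and Ltf differed by 0.49, 0.15 and -0.31 and Stfa2l1 by -0.18, and by the table these were 0.20, 0.03, 0.05 and -0.25. Summed platelet markers were 10.8 to 15.3 with saline and 14.1 to 28.3 with rhTM, and 14.1 to 15.3 and 10.8 to 28.3 with the assignment of the table. The highest value was again that of rhTM replicate 1, the array on which the brightest probe of Selp was highest, whereas its other 2 probes were highest on rhTM replicate 3. On rhTM replicate 1 Pf4, the platelet factor 4 gene, read 4.63, against 3.17 to 3.71 elsewhere, and its group difference was 0.47 (0.18 by the table). Ppbp, another platelet chemokine gene, differed by 0.10 (-0.16 by the table). The platelet marker genes Tubb1 and Gp1ba had lower means with rhTM, with differences of -0.57 and -0.65 (-0.41 and -0.68 by the table), and 6 of the 9 platelet genes tested had a lower mean. Tubb1 and Gp1ba were weak signals, from -5.39 to -4.50 and from -6.0 to -4.05 over the 6 arrays. Among the 6, Itga2b and Gp1bb were also weak, at most -2.96 and -3.15. Differences at such levels are uncertain. The part of platelets in the signal of Selp was not tested.
Of the 11 macrophage markers 8 had a lower mean, with a median of -0.12, and the groups of 4 did not overlap, all lower with rhTM (C1qa, C1qb, Ccr2 and Ly6c2), beside 2.57% of all genes that were lower without overlap. By the table the groups of all 4 overlapped. C1qb and C1qa, which encode chains of complement C1q, differed by -0.38 and -0.35 (-0.29 and -0.27 by the table). The macrophage receptor genes Marco and Mrc1 differed by 0.16 and 0.11, and by -0.17 and -0.20 by the table. Of the endothelial markers 13 of 20 had a lower mean, with a median of -0.09. Eng, encoding endoglin, was lower in every rhTM-treated mouse by the scanner output but not by the table, with a difference of -0.32, and Ramp2 differed by -0.47, Lyve1 by 0.46 and Gpihbp1 by 0.45. By the table these differences were -0.28, -0.36, 0.39 and 0.04. The summed fibroblast and mesothelial markers were 190 on rhTM replicate 1, against 293 to 332 with saline and up to 324 with rhTM. With the assignment of the table these ranges were 293 to 324 and up to 332. Inmt had the highest signal of the list with saline and weighed most in these sums. It read 5.51 on rhTM replicate 1, against 7.15 to 7.31 with saline and 6.88 to 7.38 on the other rhTM arrays. In that list 5 genes had a higher and 5 a lower mean, with a median of -0.02. The mesothelial genes Upk3b and Wt1 differed by -0.88 and -0.61 (-0.98 and -0.46 by the table), and the fibroblast receptor genes Pdgfra and Pdgfrb by 0.28 and 0.20 (0.26 and -0.0062 by the table). Lymphocyte markers had 5 of 10 higher means, with differences of 0.24 for Cd3d, 0.07 for Cd3e, -0.31 for Nkg7 and -0.23 for Cd8a (0.05, 0.05, -0.13 and -0.37 by the table). Epithelial markers had 5 of 11, with 0.17 for Aqp5, 0.20 for Cdh1, -0.17 for Ager and -0.11 for Krt18 (0.21, 0.10, -0.05 and 0.04 by the table).

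For the 3 most variable members, the genes whose centred log2 profile over the 6 arrays was nearest were read from the whole table. Vcam1 was nearest to Pknox2, Myadm and Ndnf, at root mean square distances of 0.07, 0.07 and 0.08, and 0.660% of all genes lay within 0.2 of it. Icam1 was nearest to Loxl4, the mesothelial gene Wt1 and Tnf, which encodes the cytokine TNF, at 0.08, 0.08 and 0.11, with 1.02% of genes within 0.2. Selp was nearest to Mpzl3, Tex35 and Spats2 at 0.08, 0.10 and 0.11, with 0.477% of genes within 0.2. No member was among the 3 nearest genes of another of these 3. With 6 arrays of 2 groups, such likeness describes these arrays only.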

How the data were processed

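Lung RNA of 6 mice was measured on 1-colour Agilent arrays, 1 array per mouse. The authors deposited scanner output whose processed intensity values were background-corrected within each array and not scaled between arrays. Its header names Feature Extraction 10.7.3.1, and the submitters' processing notes name version 9.1. A second deposited file lists processed intensity values by sample, with 2 columns exchanged. For RNA extraction the labels name an RNeasy kit and the methods a simplyRNA kit. For each probe, unflagged spots were averaged, and 398 of 56605 probes whose spots were all flagged on some array were dropped. Log2 signals were set relative to the 75th percentile of their array. Accessions without versions were looked up among RefSeq genes (GRCm38.p6), which named 32994 probes. The array was designed on another build, so genes are given without coordinates. Probes well above background on all 3 arrays of a group were kept (36061), and the brightest one stood for its gene.

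Groups were taken from the sample titles. The test was limma 3.58.1 (lmFit and eBayes) in R 4.3.3, adjusted by the Benjamini-Hochberg method over all 16370 genes at a threshold of 0.05, and an exact permutation test (two-sided) was run for single genes. In simulated sets of 3 rhTM and 3 saline arrays (16370 genes, 200 changed), limma's test found 48% of genes changed by 1 log2 unit and 83.4% of those changed by 2. The simulated noise was normal and independent between arrays, with the SDs of the real genes dealt out at random. It held no array that stood apart and no slide effect, so these shares need not hold for the real arrays. The members and all lists were chosen with earlier results of these data known. Besides the members, 2 genes per list and direction were named by smallest unadjusted p, and 3 nearest profiles for each of the 3 most variable members. Others were picked after their values were seen. Alternatives were normexp (offset 50, on median spot signals), quantile normalization, the 75th percentile over probes above background on all arrays, the deposited table, other filters, slide or replicate number as a block, all probes of a gene averaged, the methods' test, and arrays left out. The number of arrays limits the precision.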

Additional observations from a re-analysis of the deposited data

How the results depend on the processing

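No member passed the adjusted threshold under any alternative run, and Icam1, Icam2 and Pecam1 kept a lower mean and Esam a higher mean with rhTM in all of them. The difference of Icam1 ranged from -0.76 to -0.23, that of Icam2 from -0.58 to -0.07, that of Pecam1 from -0.79 to -0.23 and that of Esam from 0.02 to 0.20. The median difference of the members, -0.05 with all arrays, was -0.23 by the table, -0.24 by the table without rhTM replicate 1, -0.21 without both exchanged arrays, and -0.15 to 0.04 with single arrays left out, above 0 without rhTM replicate 1 (0.01) or rhTM replicate 3 (0.04).

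The sign of Sele turned after normexp (-0.038), with the 75th percentile of probes above background (-0.019), by the deposited table (-0.052) and without both exchanged arrays (-0.036). With single arrays left out it ranged from -0.13 to 0.10, being below 0 without saline replicate 3 or rhTM replicate 2 (-0.074). With single arrays left out, F11r ranged from -0.094 to 0.074 and turned without saline replicate 2 (0.074), saline replicate 3 (0.0041), rhTM replicate 1 (0.011) or rhTM replicate 3 (0.051). Vcam1 ranged from -0.70 to 0.073 and turned without rhTM replicate 1, and Selplg ranged from -0.22 to 0.070 and turned without rhTM replicate 3, with -0.34 when rhTM replicate 1 and saline replicate 1 were both left out. The table without rhTM replicate 1, an alternative chosen after seeing the data, turned Sele (-0.062), Selp (-0.23) and Cdh5 (-0.037).

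Members without overlap of the groups numbered 5 by the table, 8 without both exchanged arrays, 6 by the table without rhTM replicate 1, and 1 without rhTM replicate 1 and saline replicate 1 (also chosen after seeing the data, with 30.1% of all genes). They numbered 0 to 5 when each array was left out in turn, with the 5 (Selp, Icam1, Icam2, Pecam1 and Cdh5) found without rhTM replicate 2, beside 24.5% of all genes. Over all genes, 0 to 3 were called when each array was left out, 1 without both exchanged arrays, 1 without rhTM replicate 1 and saline replicate 1, and 589 by the table without rhTM replicate 1, in which slide 2 holds every rhTM array and no saline array. Fewer arrays give more groups without overlap by construction, and the cause of the other shifts was not tested.

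With the replicate number as a block, 0 genes and 0 members were called, the median difference of the members was -0.05, and Icam1 and Pecam1 were under an unadjusted p of 0.05, as were 377 of all 16370 genes. Same-numbered arrays correlated in their deviations at -0.30, 0.44 and -0.45 for numbers 1, 2 and 3, so the numbers were not taken as pairs. Of all pairs of a saline and an rhTM array, the highest correlation was 0.64, for saline replicate 1 with rhTM replicate 3. These are the arrays on slide 2, and the part of the slide was not tested. With the slide as a block the differences were the same and 0 genes were called.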
